A study of Mus musculus with 8 samples.

Results

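The Gadd45 family of the mouse has 3 genes, Gadd45a, Gadd45b and Gadd45g. Their mRNA was followed in splenic CD8+ T cells given interferon beta (IFNb), stimulated through the T cell receptor (TCR), or both. The members were all non-control spots that carry these gene names, which gave 4 probes for 3 of the 28095 genes on the array. The family was chosen by the measured signal of Gadd45g on these arrays, so the Gadd45g values are given as a description and carry no test, while Gadd45a and Gadd45b were tested over all genes. The description used for that choice said that Gadd45g was raised by IFNb and by TCR stimulation but not by both together. Its last clause does not hold as worded, because Gadd45g was 21.9-fold above untreated cells after IFNb 1 h followed by TCR 1 h. What the data show is a level with both treatments that was under that with IFNb alone at both times, and under that with TCR alone at 1 h only.

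The cells came from OT-I TCR transgenic mice on the C57BL6 background, whose T cells recognise an ovalbumin peptide, SIINFEKL, presented by H-2Kb, and all 8 arrays share that genotype. They were purified by magnetic separation, and the labels give a purity of 90% to 97% by flow cytometry. The conditions were IFNb for 2 h, IFNb for 7 h, TCR stimulation with SIINFEKL streptamers (peptide-loaded class I molecules held together on a carrier) for 1 h, the same for 6 h, IFNb for 1 h followed by TCR for 1 h, IFNb for 1 h followed by TCR for 6 h, and no treatment. Each treated condition had 1 array and untreated cells had 2. The age of the mice, the number pooled and the IFNb dose are not given in the sources used here. Nothing says that the arrays came from separate animals or cultures. The main tests below average the 2 untreated arrays, so no sample in them has a replicate. Their SEs and p-values measure how far different treatments depart from the fitted model, not a spread between replicates. In the additive fit these departures include any interaction of IFNb with TCR and any difference between IFNb 2 h and 7 h.

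Gadd45 proteins are small acidic proteins of the nucleus and cytoplasm with no known enzymatic activity of their own, and they act by binding others. All of them bind MAP3K4 (also called MTK1), a kinase at the head of the p38 and JNK pathways. They also bind the cell cycle inhibitor p21 and the replication clamp PCNA, and they have been placed in DNA repair and active DNA demethylation. Gadd45a is the classical p53 target among them, Gadd45b is induced through NF-kB, and Gadd45g was described as a cytokine-responsive gene. In T cells Gadd45b and Gadd45g are known for promoting p38 activity and interferon gamma production, and Gadd45a for restraining an alternative way of activating p38 downstream of the TCR.

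Each probe is 60 bases long, and the first 30 bases of all 4 are shown because every level below rests on them. Their coordinates follow build mm9, as the scanner files give them. No mm9 gene models were used, so the exon or UTR each probe lies in is not given. Gadd45b has 2 probes, both directed at NM_008655, and the other members have 1 each. The GC content of the whole probes was 40% for Gadd45a, 31.7% and 45% for Gadd45b in the order shown, and 45% for Gadd45g.
Gadd45a probe A_51_P296608 (NM_007836, chr6:66985376-66985435, minus strand): aagggacaaaaactacaaagcactgcaaga
Gadd45b probe A_51_P500984 (chr10:80394890-80394949, plus strand): cgcttgcatatttttaaaaatttctactac
Gadd45b probe A_52_P1197913 (chr10:80394367-80394426, plus strand): ctatatctctctagaggaacgctgagaccc
Gadd45g probe A_51_P315904 (NM_011817, chr13:51943733-51943792, plus strand): acttagccgactgcactgctctttcaaaaa

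The 250 bases before the annotated start of each gene are shown because the 3 members moved differently with IFNb and with TCR. The sequences are RefSeq's for GRCm38.p6, all 3 members matched, and each reads 5′ to 3′ towards the gene. Capitals mark the octamer ATTTGCAT and the E-box CACGTG on either strand.
Gadd45a upstream window (chr6:67037408-67037657, minus strand): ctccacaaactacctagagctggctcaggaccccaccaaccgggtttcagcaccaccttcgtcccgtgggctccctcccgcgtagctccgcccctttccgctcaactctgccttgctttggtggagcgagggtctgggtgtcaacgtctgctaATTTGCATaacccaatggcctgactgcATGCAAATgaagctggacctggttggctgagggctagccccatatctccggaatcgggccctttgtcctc
Gadd45b upstream window (chr10:80929841-80930090, plus strand): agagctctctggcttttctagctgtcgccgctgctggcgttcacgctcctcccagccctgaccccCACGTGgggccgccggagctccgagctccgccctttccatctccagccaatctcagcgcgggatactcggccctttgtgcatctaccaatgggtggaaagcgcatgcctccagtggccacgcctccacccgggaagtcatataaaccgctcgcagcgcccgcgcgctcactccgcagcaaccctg
Gadd45g upstream window (chr13:51846425-51846674, plus strand): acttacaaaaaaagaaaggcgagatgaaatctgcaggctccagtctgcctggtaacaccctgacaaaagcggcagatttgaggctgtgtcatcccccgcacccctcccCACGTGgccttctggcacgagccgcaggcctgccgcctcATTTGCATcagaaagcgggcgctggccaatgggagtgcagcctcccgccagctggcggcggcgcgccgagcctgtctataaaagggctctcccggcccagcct

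Gadd45a carries 2 octamers, at 97 to 90 and at 70 to 63 bases before the start, and Gadd45g carries 1 at 103 to 96. The E-box lies at 185 to 180 bases in Gadd45b and at 142 to 137 bases in Gadd45g. A TATA box (TATAAA) was found 46 to 41 bases before the start of Gadd45b and 27 to 22 bases before that of Gadd45g, and not in the window of Gadd45a. The box CCAAT occurred once in Gadd45a, at 86 to 82, once in Gadd45g, at 78 to 74, and at 2 places in Gadd45b. Gadd45b also held the EGR motif GCGNGGGCG at 30 to 22 bases, on the other strand.

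Over 32851 windows of the same length, 1.6% held the octamer, 6.02% the E-box, 12.4% TATAAA, 33.8% CCAAT and 4.7% the EGR motif. The other motifs searched on both strands were TTCNNNGAA (GAS, in 7.02% of windows), a core of the interferon-stimulated response element (ISRE, 2.98%), an NF-kB motif (4.65%), TGANTCA (AP-1, 6.75%) and TGACGTCA (CRE, 1.55%). None of these 5 was found in the 3 windows shown, which says only that their letters are not in these 250 bases. The 10 motifs were picked after the windows had been seen, and a match is a description of letters, not of a bound site.

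Signal in the text is the authors' processed intensity on a linear scale, multiplied so that the 75th percentile of every array is 1500. Before scaling that percentile was 807 to 1241 intensity units. Of 43379 non-control spots per array, 26065 to 29533 were well above background. All 32 member spots were well above background, and none was saturated or marked as an outlier. The arrays lie on 2 slides of 4. Slide 1 holds untreated replicate 1, IFNb 2 h, TCR 1 h and IFNb 1 h with TCR 1 h, and slide 2 holds untreated replicate 2, IFNb 7 h, TCR 6 h and IFNb 1 h with TCR 6 h, so the length of TCR stimulation and the slide cannot be told apart except through the untreated array on each. Over all genes the log2 difference between the untreated arrays had an SD of 0.364, and 594 of 19808 genes lay at least 2-fold apart. That SD is used below as the size of a difference between 2 single arrays, since no treated condition has a replicate. It was taken over all genes from the untreated pair alone, so it is not the spread of any given gene. A difference larger than this SD is not thereby shown to be real. Between untreated replicates 1 and 2 the log2 difference was 0.0754 for Gadd45a, -0.0391 for Gadd45b and -0.0125 for Gadd45g.

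The arrays for TCR 1 h and for IFNb 1 h with TCR 1 h carry opposite names in the deposited value table and in the scanner files. The value table's naming was used. Under it Mx1, an interferon-induced antiviral gene, had a scaled signal of 39200 after IFNb 1 h with TCR 1 h, against 167 after TCR 1 h, and 23200 after IFNb 2 h, against 95 in untreated cells. Ifit1, another such gene, had 151000 in the array named IFNb 1 h with TCR 1 h, against 633 in the array named TCR 1 h. Both genes were picked after their values were seen. Every statement below on 1 h of TCR stimulation rests on this naming, and the values under the other naming are given where the direction turns.

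CD8 T cell identity genes were present on all arrays: 8 of 8 markers were well above background on all 8 arrays, with a summed signal of 757420 and 859200 in the arrays with IFNb alone, 752680 and 365028 with TCR alone, 598900 and 396360 with both, and 576600 in untreated cells. Of 8 B cell markers 7 were measured, and their sum was 41328 and 35500 with IFNb alone (2 h, then 7 h), 11489 and 4553 with TCR alone (1 h, then 6 h), 10298 and 5316 with both, and 13292 in untreated cells. Over 8 NK cell markers the sum was 7894 and 17309 with IFNb alone, 3464 and 2062 with TCR alone, 8702 and 2600 with both, and 3478 in untreated cells. Gzma, a granzyme gene that CD8 T cells can also express, made up most of the sum in some arrays. Without it the sum was 4964 and 4709 with IFNb alone, 2881 and 1973 with TCR alone, 2082 and 2399 with both, and 2949.7 in untreated cells. The sum of 8 myeloid and dendritic cell markers lay between 2139 and 5260 over all conditions, and that of 4 CD4 T cell markers between 269.9 and 837.9. Over 3 erythroid markers, nearly all of it from Hba-a1, the sum was 4712 and 4540.3 with IFNb alone, 2198 and 1977 with TCR alone, 2388 and 2992 with both, and 1797 in untreated cells. Pax5 of the B cell list and Hbb-b1 of the erythroid list were not among the genes kept. In bulk RNA fewer cells of a type and less RNA per cell cannot be told apart.

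Gadd45g, the cytokine-responsive member, had a scaled signal of 54918 after IFNb 2 h and 58603 after IFNb 7 h. After TCR stimulation alone it had 38420 at 1 h and 2763 at 6 h. After IFNb 1 h followed by TCR it had 22261 at TCR 1 h and 6959 at TCR 6 h, and the 2 untreated arrays had 1012 and 1021. Every treated array was above both untreated arrays, the 2 arrays with IFNb alone were highest, and the treated array nearest to untreated was TCR 6 h. The family was chosen by these values, and the share of all genes that separate in this way is not given here. This order is therefore only a description.

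On the log2 scale Gadd45g was 5.76 above the untreated mean after IFNb 2 h (54-fold) and 5.85 above it after IFNb 7 h (57.6-fold). In the order of all genes by that difference it stood 18th of 19884 at 2 h and 32nd of 19867 at 7 h, highest first. The arrays for 7 h and 2 h differed by 0.09, less than the spread of 0.364. In these arrays 15.3% of genes at 2 h and 17.9% at 7 h were at least 2-fold from untreated in either direction. The summed B cell, NK cell (with and without Gzma) and erythroid markers were also higher in both arrays with IFNb alone than in untreated cells, as given above, and their part in the Gadd45g level was not tested.

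TCR stimulation alone gave a high Gadd45g level at 1 h and a low one at 6 h. The difference from untreated was 5.24 at 1 h (37.8-fold, 48th of 19880 genes) and 1.44 at 6 h (2.72-fold, 2736th of 19878). At least 2-fold differences in either direction were seen for 18.1% of genes at 1 h and 43.4% at 6 h. The TCR 6 h array lay 3.80 below the TCR 1 h array on the log2 scale, which is 13.9-fold lower. At 6 h Gadd45g was therefore within the range of many genes, while at 1 h few genes were further above untreated.

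With IFNb given first, Gadd45g was 4.45 above untreated at TCR 1 h (21.9-fold, 111th of 19853 genes) and 2.77 at TCR 6 h (6.84-fold, 669th of 19904). The shares of genes at least 2-fold from untreated were 17.5% at TCR 1 h and 43.6% at TCR 6 h. Set against TCR alone at the same time, the array with both treatments was 0.79 lower at 1 h and 1.33 higher at 6 h (2.52-fold, 268th of 19867 genes). At least 2-fold differences between those arrays were seen for 15.7% of genes at 1 h and 5.66% at 6 h. Set against IFNb alone for the same total time, it was 1.30 lower at TCR 1 h (2.47-fold) and 3.07 lower at TCR 6 h (8.42-fold), where 24.2% and 47.1% of genes differed at least 2-fold. The direction of the 1 h comparison with TCR alone rests on the array names: with the scanner files' names the array with both treatments was 0.79 higher.

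**Figure D1:**
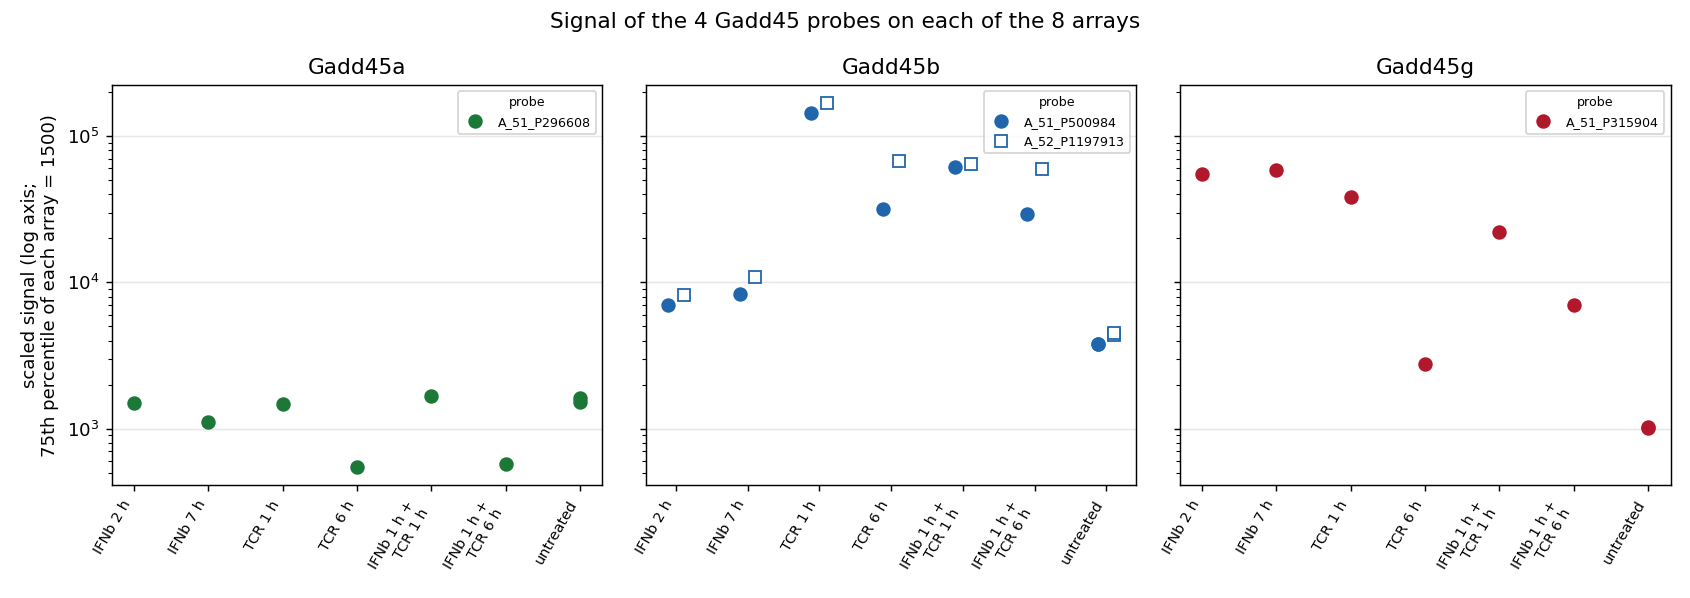
Scaled signal on a log axis (75th percentile of each array set to 1500) of each Gadd45 probe, with 1 point per array and probe and the 2 untreated arrays at the right. Gadd45g lies between 2763 and 58603 in the treated arrays and at 1012 and 1021 in the untreated ones, Gadd45b is high in the 4 arrays with TCR stimulation, and Gadd45a is low in both arrays with TCR 6 h.

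The Gadd45g signal with both treatments came to 40.5% of the higher single treatment at TCR 1 h and 11.9% of it at TCR 6 h, and the higher one was IFNb alone at both times. The family was chosen for this pattern, so these shares only describe it. The arrays with both treatments had 1 h of IFNb before TCR stimulation while the arrays with IFNb alone had 2 h or 7 h, so the lengths of IFNb treatment before harvest are matched only in total time. The labels do not say whether IFNb stayed in the medium during TCR stimulation.

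Ordered by level, Gadd45g ran from IFNb 7 h and IFNb 2 h through TCR 1 h, IFNb with TCR 1 h, IFNb with TCR 6 h and TCR 6 h to untreated. Only the first pair of neighbours lay closer than 0.364, and the gap from IFNb 2 h to TCR 1 h was 0.52. Against the untreated array of the same slide in place of the mean, the differences were 5.76 after IFNb 2 h, 5.84 after IFNb 7 h, 5.25 after TCR 1 h, 1.44 after TCR 6 h, 4.46 after IFNb with TCR 1 h and 2.77 after IFNb with TCR 6 h. Untreated replicate 1 was lower than replicate 2 by a log2 difference of -0.0125.

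Gadd45b, the NF-kB-induced member, was highest after TCR stimulation. Its brighter probe, A_52_P1197913, had a scaled signal of 8254 after IFNb 2 h and 10877 after IFNb 7 h. It had 167737 after TCR 1 h and 67156 after TCR 6 h. With IFNb before TCR it had 64111 at TCR 1 h and 59284 at TCR 6 h, and the untreated arrays had 4389 and 4509.6. The 4 arrays with TCR stimulation lay above the 4 without it, with no overlap, and TCR 1 h alone stood above the other 3. The share of all genes that separate in this way is not given here, so the separation is only a description.

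In limma's additive fit, with terms for IFNb and for each TCR time and 7 samples, Gadd45b rose with TCR stimulation at both times. At 1 h the log2 change was 3.81 ± 0.55 (SE; 14-fold; 95% interval 2.49 to 5.13; adjusted p = 0.025 over all genes). At 6 h it was 3.09 ± 0.55 (8.53-fold; 1.77 to 4.42; adjusted p = 0.0052). At an adjusted p under 0.05 the same fit called 4.15% of genes at 1 h and 44.8% at 6 h, so a call at 6 h was common and a call at 1 h was not. The TCR 1 h call was lost when either array with TCR 1 h or either array with IFNb alone was left out, with adjusted p = 0.057 to 0.12 and changes of 2.94 to 4.87. The TCR 6 h call remained under every alternative run, with adjusted p = 0.0014 to 0.038.

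IFNb alone gave smaller differences for Gadd45b than TCR alone did. Gadd45b was 0.89 above untreated on the log2 scale after IFNb 2 h (1.86-fold, 2356th of 19884 genes, highest first). After IFNb 7 h it was 1.29 above untreated (2.44-fold, 1357th of 19867). Both are larger than the spread of 0.364 between single arrays. The IFNb term over arrays with and without TCR was -0.03 ± 0.46 (95% interval -1.15 to 1.08, adjusted p = 0.99), and 0.0502% of genes were called for that term. This interval allows a change of about a log2 unit in either direction.

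With both treatments Gadd45b lay 3.85 above untreated at TCR 1 h (14.4-fold) and 3.74 at TCR 6 h (13.3-fold), against 5.24 for TCR 1 h alone (37.7-fold) and 3.92 for TCR 6 h alone (15.1-fold). The array with both was thus 1.39 lower than TCR alone at 1 h (2.62-fold) and 0.18 lower at 6 h, and only the first of these is larger than 0.364. With the scanner files' names for the 1 h arrays the first was 1.39 higher. In the model with interaction terms the IFNb by TCR 1 h term was -2.48 ± 0.53 (95% interval -3.94 to -1.02, adjusted p = 0.57) and the IFNb by TCR 6 h term -1.27 ± 0.53 (-2.73 to 0.19, adjusted p = 0.66). Neither passed over all genes, and the fit called 0% of genes for either term, with 1515 and 1639 genes at an unadjusted p under 0.05. That model has 1 residual degree of freedom, from the difference between IFNb 7 h and IFNb 2 h.

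The 2 Gadd45b probes gave the same picture at 1 h and different sizes at 6 h. The dimmer probe, A_51_P500984, had 7024 after IFNb 2 h, 8361 after IFNb 7 h, 143057 after TCR 1 h and 31958 after TCR 6 h. It had 61001 after IFNb with TCR 1 h, 29476 after IFNb with TCR 6 h, and 3809 and 3780.1 in the untreated arrays. Relative to untreated it was 5.24 higher on the log2 scale after TCR 1 h, as the brighter probe was, but 3.07 after TCR 6 h, where the brighter one was 3.92. With both treatments it was 2.96 higher at TCR 6 h, where the brighter one was 3.74. The TCR 6 h array minus the TCR 1 h array was -2.16 by the dimmer probe and -1.32 by the brighter one, so the size of the difference between the times depends on the probe and its direction does not.

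Ordered by level of the brighter probe, Gadd45b ran from TCR 1 h through TCR 6 h, IFNb with TCR 1 h, IFNb with TCR 6 h, IFNb 7 h and IFNb 2 h to untreated. TCR 6 h and the 2 arrays with both treatments were 0.07 and 0.11 apart and cannot be ordered, and the gap of 0.40 between IFNb 7 h and IFNb 2 h was barely larger than 0.364.

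Gadd45a, the p53-responsive member, was not above untreated by more than 0.364 on any treated array. Its probe had a scaled signal of 1495 after IFNb 2 h and 1120.3 after IFNb 7 h. It had 1481 after TCR 1 h and 547.3 after TCR 6 h. With both treatments it had 1664 at TCR 1 h and 575.7 at TCR 6 h, and the untreated arrays had 1615 and 1533. Both arrays with TCR 6 h lay below all others, and the array after IFNb 7 h came next. How many of all genes show this order is not given here.

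Gadd45a fell with TCR 6 h, by a log2 change of -1.31 ± 0.26 (SE, limma additive fit, 95% interval -1.93 to -0.68, adjusted p = 0.008), among the 44.8% of genes called for that term. On single arrays it was 1.52 below untreated with TCR 6 h alone (2.87-fold lower) and 1.45 below with IFNb and TCR 6 h (2.73-fold lower). The call was lost without the array with IFNb and TCR 6 h (-1.39, adjusted p = 0.058), and adjusted p was 0.0018 to 0.058 over all alternatives. When arrays were scaled to their medians, the all-gene median for TCR 6 h was higher by 0.328, and the Gadd45a change was then -0.98. In the same arrays 5 of 8 CD8 T cell identity genes fell and 1 rose, Cd8a, the alpha chain of the CD8 coreceptor, falling by 2.14 on the log2 scale (adjusted p = 0.0025). The part of a changed RNA content per cell in these values was not tested.

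No change of Gadd45a passed for the other terms. It was 0.18 ± 0.26 for TCR 1 h (95% interval -0.45 to 0.80, adjusted p = 0.75) and -0.04 ± 0.22 for IFNb (-0.57 to 0.48, adjusted p = 0.97). The interaction terms were 0.45 ± 0.53 at TCR 1 h (-1.03 to 1.93, adjusted p = 0.82) and 0.35 ± 0.53 at TCR 6 h (-1.12 to 1.83, adjusted p = 0.92). Between the array with both treatments and TCR alone the differences were 0.17 at 1 h and 0.07 at 6 h, both within 0.364. By level, IFNb with TCR 1 h, untreated, IFNb 2 h and TCR 1 h followed each other at gaps of 0.08 or less and cannot be ordered. IFNb 7 h lay 0.40 below TCR 1 h, and the 2 arrays with TCR 6 h were 0.07 apart.

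**Figure D2:**
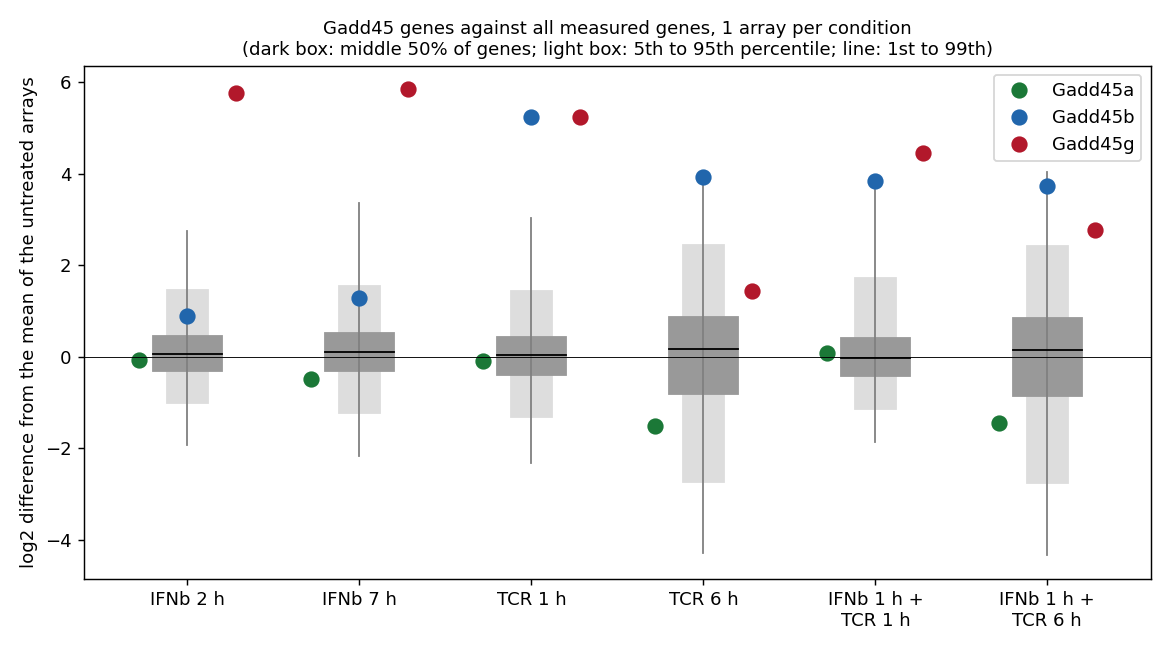
Log2 difference of each single treated array from the mean of the 2 untreated arrays, with all genes as boxes (median line, middle 50% dark, 5th to 95th percentile light, thin line 1st to 99th) and the Gadd45 genes as points. Gadd45g lies above the 99th percentile with IFNb alone, with TCR 1 h and with both at TCR 1 h, Gadd45b above it at TCR 1 h with or without IFNb, and Gadd45a within the 5th to 95th percentile in all 6.

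**Figure D3:**
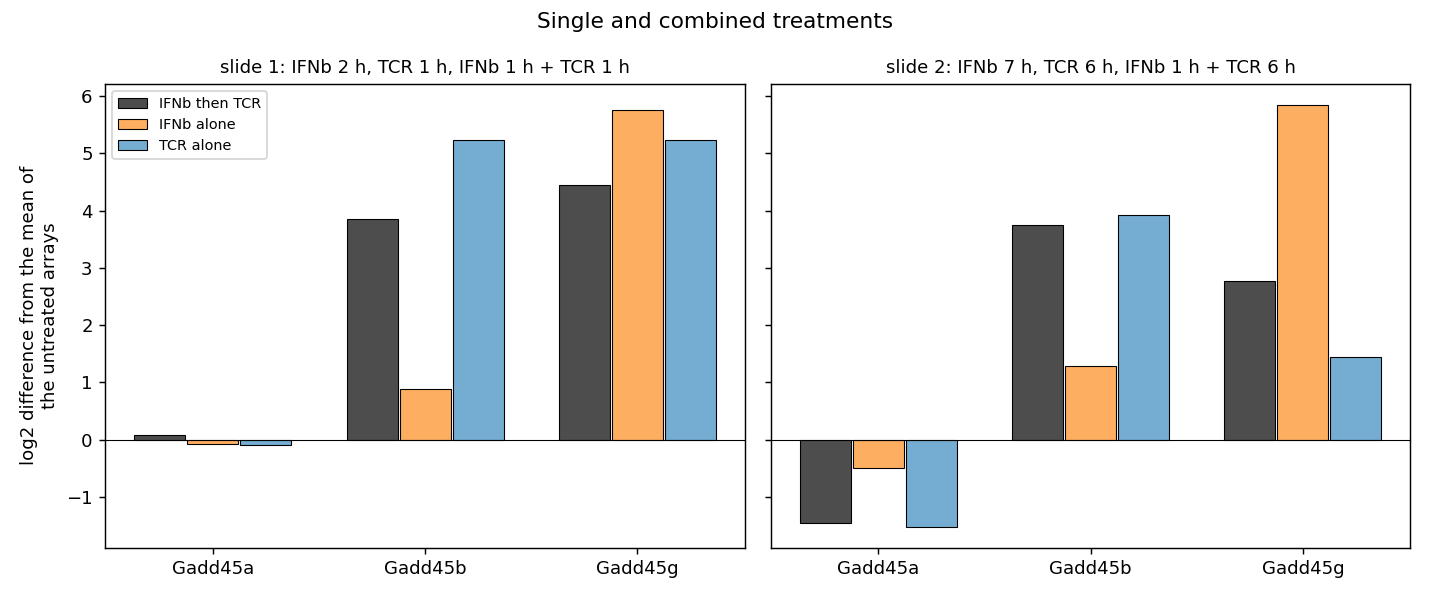
Bars give the log2 difference from the mean of the untreated arrays for IFNb followed by TCR, IFNb alone and TCR alone, with 1 array per treated bar and therefore no error bars. For Gadd45g the bar for both treatments stands at 4.45 at TCR 1 h (left) and 2.77 at TCR 6 h (right), under IFNb alone in both panels, and for Gadd45b at 3.85 and 3.74, under TCR alone in both.

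Put side by side, the members differed in which treatment moved them. IFNb alone for 2 h gave log2 differences from untreated of 5.76 for Gadd45g, 0.89 for Gadd45b and -0.07 for Gadd45a. TCR 1 h alone gave 5.24 for both Gadd45g and Gadd45b and -0.09 for Gadd45a. At TCR 6 h alone Gadd45b was still 3.92 above untreated, while Gadd45g was 1.44 above it and Gadd45a 1.52 below it. Over the 7 conditions the Pearson correlation of log2 signal was 0.161 between Gadd45b and Gadd45g, 0.347 between Gadd45a and Gadd45g and -0.326 between Gadd45a and Gadd45b. These are descriptions over 7 conditions that share slides and an untreated mean.

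Among 5074 other genes that varied by at least 2 on the log2 scale over the 7 conditions, those most like Gadd45g by Pearson correlation were Insl6 (0.966), Socs1 (0.927), Jaml (0.883), Irf1 (0.882), Armc9 (0.878) and BC049715 (0.869). Socs1, a feedback inhibitor of cytokine receptor signalling, had log2 differences from untreated of 3.21 after IFNb 2 h and 2.70 after IFNb 7 h, and of 2.46 after TCR 1 h and -0.10 after TCR 6 h. After IFNb with TCR it was 2.51 above untreated at 1 h and 0.07 at 6 h. Irf1, a transcription factor of the interferon response, had 2.63 and 2.09 after IFNb alone, 1.36 and -0.20 after TCR alone, and 1.85 and -0.20 after both. Like Gadd45g, these 2 genes were lower at TCR 6 h than at TCR 1 h, with and without IFNb. At TCR 1 h the 6 genes differed in how the array with both treatments stood to TCR alone. It was lower for Insl6 (2.85 against 3.83), Armc9 (0.83 against 1.48) and, by less than 0.364, BC049715 (0.93 against 1.13), as it was for Gadd45g. It was higher for Jaml (5.54 against 3.32), Irf1 and, by less than 0.364, Socs1.

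**Figure D4:**
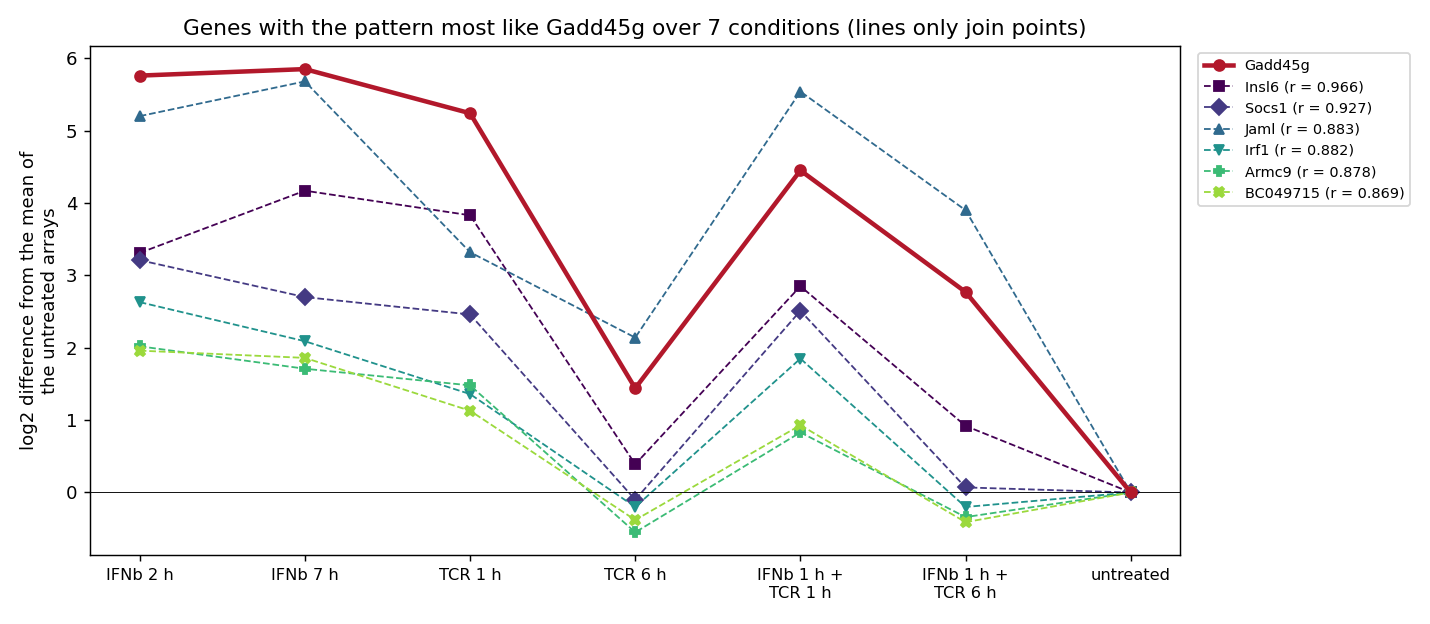
Log2 difference from the mean of the untreated arrays for Gadd45g and the 6 genes most like it over 7 conditions, with 1 point per condition and lines that only join points. All 7 genes are at least 1.71 above untreated after IFNb alone for 7 h, and 5 of the 6 others lie within 1 of untreated after TCR 6 h, with or without IFNb.

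The genes most like Gadd45b were Tmem201 (0.988), Tespa1 (0.986), F3 (0.982), Tnf (0.981), Ptpn6 (0.98) and Rasgef1b (0.979). Tnf, the gene of the inflammatory cytokine tumour necrosis factor, was 8.76 above untreated after TCR 1 h and 6.26 after TCR 6 h, and 7.29 and 6.64 with IFNb before TCR. After IFNb alone it was -0.24 from untreated at 2 h and 0.98 at 7 h. F3, the gene of tissue factor, the starter of blood clotting, was 10.37 above untreated after TCR 1 h and 8.62 after TCR 6 h, and 7.77 and 7.78 with IFNb before TCR. For Gadd45a they were Fzd6 (0.998), Myo18a (0.996), Slc9a9, Ahnak and Bckdhb (0.995 each) and Btbd11 (0.994), out of 5075 genes. Each was at least 2.17 below untreated after TCR 6 h alone, where Gadd45a was 1.52 below. The search kept only genes that varied by at least 2, which is more than Gadd45a varied. A larger fall in genes so like it was therefore set by that filter and is not a result.

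The kinase cascade that Gadd45 proteins act on was measured with 18 genes, all of them kept. For IFNb 0 of 18 passed the additive test, for TCR 1 h 1 rose and 0 fell, and for TCR 6 h 7 rose and 3 fell, with medians of -0.22, 0.33 and 0.49 against -0.01, -0.05 and 0.05 over all genes. Over all genes 0.0502% were called for IFNb, 4.15% for TCR 1 h and 44.8% for TCR 6 h. The 10 of 18 at TCR 6 h are thus near the share of all genes. The 0 for IFNb is near it too and does not show that IFNb left a list unmoved. The counts of the lists below are to be read against the same shares. Map3k4, the kinase that Gadd45 proteins bind, had a scaled signal of 2470 after TCR 1 h and 656 after TCR 6 h, against 2940 in untreated cells. It fell by 2.13 ± 0.32 on the log2 scale with TCR 6 h (limma, adjusted p = 0.0027). With the mean of the probes of the gene in place of the brightest the change was -0.88 (adjusted p = 0.035), so its size depends on the probe. Map2k3, a kinase that activates p38, rose with TCR 6 h by 4.28 ± 0.41 (19.4-fold, adjusted p = 0.00068), with a signal of 36500 after TCR 6 h, against 2350 in untreated cells. The Map2k3 change was 3.62 without the array with IFNb and TCR 6 h and 3.52 with normexp and quantile normalization. Map2k6, the related activator of p38, was not well above background on either array with TCR 6 h. Its signal there, averaged on the log2 scale, was 18.8-fold lower than in the arrays without TCR. In the limma additive fit the Map2k6 change for TCR 6 h was -4.28 ± 0.74 (adjusted p = 0.0048). Both values rest on signal not well above background, so the fold is not a bound, and their size depends on the processing. With normexp background correction and quantile normalization the Map2k6 change was -0.83 and that call was lost (adjusted p = 0.11), and in the series value table, which has a floor, it was -2.84.

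Map2k3 was also the gene of this cascade that passed for TCR 1 h (2.35 ± 0.41, adjusted p = 0.038), with changes of 1.68 to 3.15 over the 8 leave-outs. This call was lost without either array with TCR 1 h and without either array with IFNb alone, and the calls over all genes for TCR 1 h then numbered 30 to 115 in place of 826. Without the array with IFNb and TCR 6 h the number of cascade genes called for TCR 6 h was 4 in place of 10, and without that for IFNb 2 h it was 6. Mapk14, the main p38 kinase, was not among the 10, with 8100 after TCR 6 h, against 9960 in untreated cells.

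**Figure D5:**
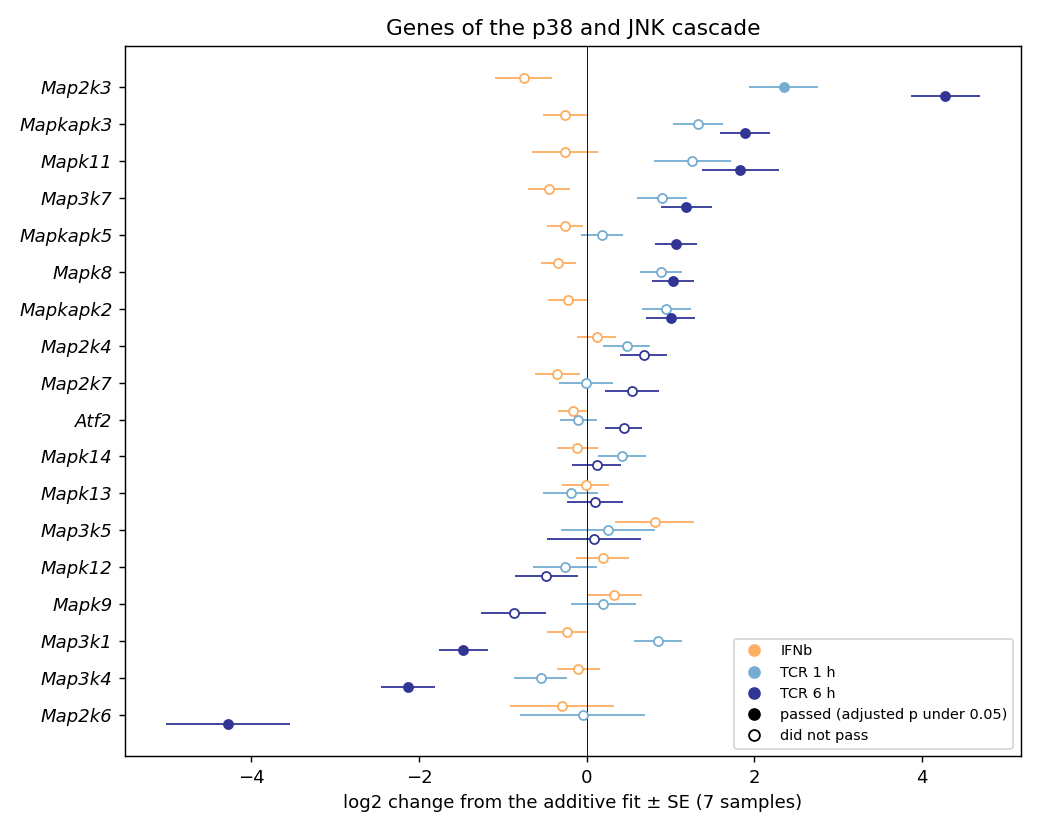
Log2 change ± SE from the additive limma fit over 7 samples for 18 genes of the p38 and JNK cascade, with filled points where the adjusted p is under 0.05. Map2k3 is highest and Map2k6 lowest for TCR 6 h (4.28 and -4.28). The Map2k6 value is fitted to signal not well above background there. No gene passed for IFNb, a term for which 0.0502% of all genes were called.

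Of 8 growth-arrest partners of the Gadd45 proteins, 0 passed for IFNb, 1 rose for TCR 1 h, and 4 rose and 0 fell for TCR 6 h. The last count is near the 44.8% of all genes called for TCR 6 h. For IFNb and TCR 1 h 0.0502% and 4.15% of all genes were called, and the list medians were -0.27, 0.11 and 0.75. Cdkn1a, which encodes the cell cycle inhibitor p21, rose 37.1-fold with TCR 1 h (5.21 ± 0.48, adjusted p = 0.0096) and 50.4-fold with TCR 6 h (5.65 ± 0.48, adjusted p = 0.00053). Its signal was 13300 after TCR 1 h and 8260 after TCR 6 h, against 227 in untreated cells. Without the TCR 1 h array the first of these calls was lost (4.45, adjusted p = 0.059), and without the array with both at TCR 1 h the change was 6.15. For TCR 6 h it was 4.82 without the array with IFNb and TCR 6 h, 6.34 without the TCR 6 h array and 4.50 with normexp and quantile normalization. Gadd45gip1, whose product binds Gadd45 proteins and is also a mitochondrial ribosomal protein, rose with TCR 6 h by 2.05 ± 0.27 (adjusted p = 0.0018), and by 1.30 with quantile normalization. Pcna, the replication clamp, rose by 1.61 ± 0.31 (adjusted p = 0.0072). When the array with IFNb and TCR 6 h was omitted its call was lost (1.13, adjusted p = 0.092), and 2 of the 8 partners were called. Quantile normalization also ended it (0.94, adjusted p = 0.05) and also left 2 called.

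Among 17 genes known to regulate Gadd45 transcription 0 passed for IFNb, 5 rose and 0 fell for TCR 1 h, and 9 rose and 5 fell for TCR 6 h. The shares of all genes called were 0.0502%, 4.15% and 44.8%, and the list medians were -0.13, 0.87 and 1.28. Egr1, an immediate early transcription factor, rose with TCR 1 h by 6.09 ± 0.29 (adjusted p = 0.0037) and with TCR 6 h by 3.75 ± 0.29 (adjusted p = 0.00048). Atf3, a stress-induced transcription factor, rose by 6.82 ± 0.44 and 6.68 ± 0.44 (adjusted p = 0.0041 and 0.00039). Its TCR 1 h change was 6.08 without the TCR 1 h array and 7.74 without the array with both at TCR 1 h, and its TCR 6 h change 6.00 without the array with IFNb and TCR 6 h and 5.58 with normexp and quantile normalization. Myc, described as a repressor of Gadd45a, rose by 4.78 ± 0.59 with TCR 1 h (adjusted p = 0.018), where Gadd45a did not pass, and by 4.73 ± 0.59 with TCR 6 h (adjusted p = 0.0015). The part of Myc in the Gadd45a level was not tested. The Myc call for TCR 1 h was lost without either array with TCR 1 h (3.95 and 5.79) and without IFNb 7 h (4.89), with adjusted p = 0.062 to 0.11. Nfkb1, a subunit of NF-kB, rose with TCR 6 h by 2.98 ± 0.28 (adjusted p = 0.00066) and was at 0.90 for TCR 1 h (adjusted p = 0.13). Rel, another subunit, rose at both times, by 3.87 ± 0.43 with TCR 1 h (adjusted p = 0.015) and 3.26 ± 0.43 with TCR 6 h (adjusted p = 0.0018). For TCR 1 h the count was 2 without the TCR 1 h array and 3 without the array with both treatments at TCR 1 h, IFNb 2 h or IFNb 7 h.

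The p53 list was measured in full, with 18 genes. For IFNb 0 passed, for TCR 1 h 6 rose and 1 fell, and for TCR 6 h 9 rose and 3 fell. The shares of all genes called were 0.0502%, 4.15% and 44.8%, and the list medians were -0.14, 0.65 and 1.37. Trp53 itself was at -0.04 at TCR 1 h and -0.13 at TCR 6 h. Mdm2, a target of p53 that degrades it, was at 0.40 and 0.02, and none of these passed. Those with the largest changes were the kinases Plk2 (5.61 ± 0.55 for TCR 6 h, adjusted p = 0.00072) and Plk3 (6.02 ± 0.42 for TCR 1 h, adjusted p = 0.0046) and the stress gene Sesn2 (4.63 ± 0.35 for TCR 6 h, adjusted p = 0.00046). The Plk3 call for TCR 1 h was lost without the TCR 1 h array (5.71, adjusted p = 0.062), where 0 listed genes were called. Without the array with both treatments at TCR 1 h, IFNb 2 h or IFNb 7 h, 1 was called. With normexp and quantile normalization the TCR 6 h changes were 3.73 for Plk2 and 3.88 for Sesn2. Sesn1, Pmaip1 and Trp53inp1 fell with TCR 6 h, as Gadd45a did, with changes of -3.52, -1.02 and -1.21 (adjusted p = 0.0005, 0.013 and 0.047).

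Of 12 genes of the interferon gamma programme 0 passed for IFNb, 2 rose and 0 fell for TCR 1 h, and 3 rose and 5 fell for TCR 6 h. The shares of all genes called were 0.0502%, 4.15% and 44.8%, and the list medians were 0.70, -0.10 and -0.58. The 0 for IFNb is near the share of all genes and does not show that IFNb left this list unmoved. Ifng, the gene of interferon gamma, had a scaled signal of 102000 after TCR 1 h and 63800 after TCR 6 h, 133000 and 148000 with IFNb before TCR, and 281 in untreated cells. It rose by 8.54 ± 0.30 with TCR 1 h (adjusted p = 0.0017) and 8.28 ± 0.30 with TCR 6 h (adjusted p = 0.00028). Tbx21, which encodes the transcription factor T-bet, rose by 5.42 ± 0.30 and 4.61 ± 0.30 (adjusted p = 0.0038 and 0.00039). Without the array with IFNb and TCR 6 h 5 genes of the list were called for TCR 6 h in place of 8. Il18r1, a chain of the interleukin 18 receptor through which Gadd45 genes are induced in T cells, fell by 4.12 ± 0.38 with TCR 6 h (adjusted p = 0.00064; -3.45 without the array with IFNb and TCR 6 h). After IFNb alone Ifng had 430 at 2 h and 313 at 7 h, in the arrays where Gadd45g was highest.

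Of 13 genes of DNA demethylation and repair 0 passed for IFNb, 1 rose for TCR 1 h, and 3 rose and 6 fell for TCR 6 h. The shares of all genes called were 0.0502%, 4.15% and 44.8%, and the list medians were -0.02, -0.24 and -0.46. Mbd4, a DNA glycosylase that works with Gadd45 in zebrafish demethylation, fell by 2.97 ± 0.30 with TCR 6 h (adjusted p = 0.00078; -1.39 with normexp and quantile normalization), while Tdg, another glycosylase, rose by 2.17 ± 0.27 (adjusted p = 0.0016). Apobec1, a cytidine deaminase, had a signal of 12700 after IFNb 2 h and 11600 after IFNb 7 h, 4960 and 329 after IFNb with TCR 1 h and 6 h, 529 and 259 after TCR alone, and 875 in untreated cells. Its change for TCR 6 h was -3.68 ± 0.74 (adjusted p = 0.0087), and it did not pass when slide 2 was fitted alone (-3.43, adjusted p = 0.051) or with the scanner files' names (-4.00, adjusted p = 0.081). It was -1.92 without the array with IFNb and TCR 6 h and -5.12 without the TCR 6 h array. Without the array with IFNb and TCR 6 h 4 genes of the list were called for TCR 6 h in place of 9, and the call for TCR 1 h was lost without either array with TCR 1 h and without either array with IFNb alone.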

How the data were processed

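Per the file headers, the deposited scanner files hold linear processed intensity from the authors' Feature Extraction software (10.7.3.1, but 9.5.3.1 per the submitters' processing notes), background-subtracted and not normalized between arrays. The deposited series values are the same intensity, multiplied by a single factor per array, with values under 15 raised to 15. Its columns for TCR 1 h and IFNb 1 h with TCR 1 h match each other's scanner file, and 6 columns match their own. Its naming was used.

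Log2 intensity was centred on each array's 75th percentile, with no pseudocount. Outlier spots were left out, repeated spots averaged, and a probe needed 2 arrays well above background (28708 of 41174 had them). The brightest probe stood for each of 19919 genes. By accession 26690 probes were named from RefSeq, and 14484 kept the file's name. With the untreated arrays averaged, limma 3.58.1 (R 4.3.3, data.table version 1.17.8) fitted 7 samples by an additive model (3 residual degrees of freedom) and an interaction model (1), with Benjamini-Hochberg adjustment over all genes at 0.05. The TCR 6 h term of the additive model was tested on simulated data, and the interaction terms were not. Figures used matplotlib 3.10.9 in Python 3.11.15.

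Alternatives were the normalization, the background correction (normexp, offset 50), the filter, the probe rule, the slide, the array names, the value table and leave-outs. Members, lists and tests were chosen with earlier results of these data known. Named genes were the members, the 3 largest called per list and term, a fixed set (Map3k4, Cdkn1a, Ifng, Tbx21, Trp53, Nfkb1, Egr1, Mdm2 and Cd8a) and the 6 most like each member by correlation. Mapk14, Rel, Pmaip1, Trp53inp1 and, at TCR 6 h, Tdg and Sesn1 were picked after their values were seen. Not all genes the rule named are described.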

Additional observations from a re-analysis of the deposited data

Results flagged for a closer look

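The difference of Gadd45g between the array with IFNb 1 h and TCR 1 h and the array with TCR 1 h alone was -0.79 on the log2 scale. It stands out because without TCR the array with IFNb was 5.76 (2 h) and 5.85 (7 h) above untreated, and at TCR 6 h the array with IFNb was 1.33 above that without. The difference between these contrasts was not tested, since Gadd45g was chosen for it and each contrast has 1 array a side. With the scanner files' names of the 1 h arrays the value is 0.79.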

How the results depend on the processing

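No paired analysis was possible because only untreated arrays carry replicate numbers; the slide was fitted as a block instead. Of the main member results under the alternatives run, 302 were kept, 14 reversed, 8 moved and 5 lost a call, and the cause was not tested. Kept means the same direction and, where there was a test, the same side of the threshold. The results counted include Gadd45g differences between single arrays, which carry no test. Leaving out an array that is not part of such a difference cannot change it. The count of those kept is therefore not a measure of robustness. With the scanner files' names, Gadd45b was 0.80 for IFNb, 0.30 for the IFNb by TCR 1 h interaction and 1.39 for both minus TCR alone at 1 h. Gadd45g was then 4.45 after TCR 1 h, 5.24 after IFNb with TCR 1 h, and 0.79 for their difference, and Gadd45a 0.08, -0.09 and -0.17. The IFNb term of Gadd45b turned to 0.15 with untreated arrays separate and with slide as a block, 0.01 with quantile normalization, and 0.55 on slide 2 alone or without both TCR 1 h arrays (leave-outs -0.23 to 0.55). That of Gadd45a turned to 0.03 on slide 1 alone (leave-outs -0.13 to 0.06). With normexp and quantile normalization Gadd45a was 0.00 after TCR 1 h, and Gadd45g 5.57 after IFNb 7 h, 4.89 after TCR 1 h, 1.13 after TCR 6 h, 4.18 after IFNb with TCR 1 h and 2.22 after IFNb with TCR 6 h. With median scaling the last was 3.08. Over leave-outs Gadd45b ran from 2.94 to 4.87 for TCR 1 h and Gadd45a from -1.45 to -1.23 for TCR 6 h. Genes called for IFNb (10) were 0 to 275 over leave-outs, 84 with untreated arrays separate, 279 on slide 1 and 0 with quantile normalization. Those for TCR 1 h (826) were 30 to 810 over leave-outs and 2534 with untreated arrays separate, and those for TCR 6 h (8921) were 4695 without the array with IFNb and TCR 6 h. For the IFNb by TCR 1 h interaction 65 genes were called with the scanner files' names, against 0.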
